A study of Mus musculus with 2 samples.

Results

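The nuclei described here are macrophages of mouse inguinal white fat (iWAT, a depot under the skin) that carried RNA of Mrc1, F13a1 and Cd163 or related genes. A nucleus was a member when it had at least 1 unique molecular identifier (UMI, 1 captured RNA molecule) of at least 3 of the 7 genes Mrc1, F13a1, Cd163, Ms4a4a, Mctp1, Hrh1 and Csf1r. It also had to have UMIs of at most 1 gene of each of 3 exclusion lists. The first list (St18, Ptpro, Adgre4, Sirpb1a, Sirpb1b, Skint3) and the second (Timd4, Cd209b, Fcna, Ms4a14) mark other macrophages, and the third (Plin1, Plin4, Cidec, Lipe) marks adipocytes. The filters kept 6593 nuclei (500 or more detected genes, mitochondrial UMIs not above 5%), and 438 of these were members. They were chosen on these same counts, so the 7 genes and the exclusion lists are description and support nothing.

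Single-nucleus RNA-seq was performed with a 10x Genomics droplet kit on iWAT of male C57BL/6 mice fed a Western diet. The genotype Lexis KO stood for deletion of the long noncoding RNA Lexis by a Cre recombinase driven by the Adipoq promoter, and the genotype Lexis WT for Cre-negative littermates. Both groups shared the diet and the sex, and the labels do not give the ages of these mice. Adipoq-driven Cre acts in adipocytes and not in macrophages. Tissue of 3 mice, with the lymph node removed, was pooled into 1 library per genotype. There was therefore no replicate and no test. The 95% intervals below are exact and cover counting error only. The deposited file names carry the opposite genotype to the sample labels in both libraries, and Lexis was not analysed here, so the groups are named by their labels, as the labelled-WT and labelled-KO libraries, and a direction between them is only as sure as those labels.

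Resident macrophages of adipose tissue lie along vessels and between adipocytes, where they take up debris, dying cells, lipid and iron. Mrc1 (CD206) and Cd163 are scavenger receptors, the latter for haemoglobin bound to haptoglobin, and F13a1 encodes the A subunit of coagulation factor XIII. Csf1r is the receptor for the growth factors CSF1 and IL-34, on which macrophages depend. In several tissues resident macrophages have been divided into LYVE1-positive cells close to vessels, with low MHC class II, and cells with higher MHC class II and Ccr2, the receptor that brings monocytes out of the blood. PU.1 (encoded by Spi1) and MAF are transcription factors of the macrophage lineage.

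Promoter sequence was read for genes that lead the members, to show a feature the rule did not use. Of 27 named genes (the 7 rule genes and the 20 genes with the highest levels relative to other nuclei, below), 21 had a promoter in the RefSeq table (GRCm38.p6). The 250 bases before the start site were searched on both strands for GAGGAA, the core bound by PU.1. A MAF half-site, TGCTGA, was also searched, and its end can overlap the start of the PU.1 core. The PU.1 core lay in 12 of the 21 genes (57.1%), against 25.9% of 27025 genes with a promoter (23.3% of 32851 promoters). The MAF half-site lay in 7 of the 21 (33.3%), against 18% of genes (16.1% of promoters). The 3 promoters printed here were picked after these matches were seen, as examples of a rule gene (Mrc1, ENSMUSG00000026712), a scavenger receptor (Stab1, ENSMUSG00000042286) and a complement gene (C1qb, ENSMUSG00000036905). They are written from 5′ to 3′ on the strand of the gene, with the PU.1 core, or its reverse complement, in capitals.
Mrc1, chr2:14229164-14229413, plus strand: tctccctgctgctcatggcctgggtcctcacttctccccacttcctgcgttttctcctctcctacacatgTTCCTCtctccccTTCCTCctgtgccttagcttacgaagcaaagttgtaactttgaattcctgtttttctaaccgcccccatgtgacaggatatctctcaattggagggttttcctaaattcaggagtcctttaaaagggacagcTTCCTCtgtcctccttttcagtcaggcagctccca
Stab1, chr14:31168642-31168891, minus strand: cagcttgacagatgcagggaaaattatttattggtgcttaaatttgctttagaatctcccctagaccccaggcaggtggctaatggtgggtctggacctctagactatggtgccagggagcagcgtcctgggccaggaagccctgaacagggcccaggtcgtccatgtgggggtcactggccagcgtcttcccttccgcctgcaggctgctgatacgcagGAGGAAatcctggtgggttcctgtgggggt
C1qb, chr4:136886201-136886450, minus strand: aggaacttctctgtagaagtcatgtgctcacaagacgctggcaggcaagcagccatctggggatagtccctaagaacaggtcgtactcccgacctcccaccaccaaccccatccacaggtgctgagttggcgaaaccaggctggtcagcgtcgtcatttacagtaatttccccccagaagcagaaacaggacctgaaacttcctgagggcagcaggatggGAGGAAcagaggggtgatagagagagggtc
The Mrc1 window held 3 matches, all on the antisense strand, and the Stab1 and C1qb windows held 1 sense match each. A match is a run of letters, not a measured binding site.

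Each deposited library held 5000 barcodes, with 9376351 UMIs in the labelled-WT library and 19655049 in the labelled-KO library. Members numbered 107 of 3649 kept nuclei in the labelled-WT library, a share of 2.93% (95% Clopper-Pearson interval 2.41 to 3.53). They numbered 331 of 2944 in the labelled-KO library, a share of 11.2% (interval 10.1 to 12.4). The share was higher in the labelled-KO library by 8.31 percentage points (interval 7.04 to 9.62), and the direction held in all 7 other ways of counting, with differences from 4.87 to 19.9 points. Other nuclei set the denominator: the labelled-WT library held 1097 B and 411 T lymphocyte nuclei, against 27 and 49 in the labelled-KO library. With B and T nuclei left out, the shares were 5.00% and 11.5%. The 2 libraries shared 12 barcodes, none of which was a member in both.

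Members of the labelled-WT library had a median of 1744 UMIs (range 727 to 14346) and 1041 genes. Those of the labelled-KO library had a median of 2367 UMIs (range 716 to 13770) and 1462 genes, so the depth ranges overlapped while the medians differed. Detection of rule genes moved with the label too. In the labelled-WT library, 46.7% of members had 3 rule genes, 1.87% had 6 and none had all 7. Among members of the labelled-KO library, 13.6% had 3, 26.0% had 6 and 9.37% had all 7. Malat1, an abundant nuclear RNA, took 17.7% of member UMIs in the labelled-WT library and 4.86% in the labelled-KO library. What part these differences in depth and RNA content have in the share was not tested beyond the settings above.

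**Figure D1:**
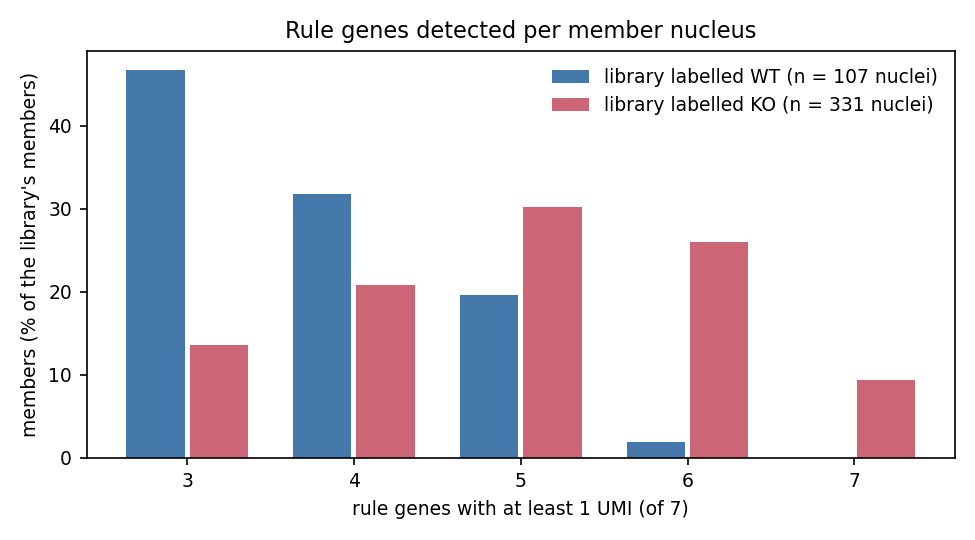
Share of members (y axis, percent of each library's members) by the number of the 7 rule genes with at least 1 UMI (x axis), for 107 members of the labelled-WT library (blue) and 331 of the labelled-KO library (red). Most members of the labelled-WT library sat at 3 or 4 rule genes (46.7% and 31.8%), while those of the labelled-KO library peaked at 5 (30.2%).

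The exclusion lists removed many nuclei that carried the rule genes. Of 163 nuclei with at least 3 rule genes in the labelled-WT library, 2 exceeded the limit of the St18 list, 24 that of the Timd4 list and 39 that of the adipocyte list, which left 65.6%. Of 718 such nuclei in the labelled-KO library, the numbers were 158, 103 and 223, which left 46.1%. Excluded nuclei were deeper than the rest of these nuclei: their median UMI count was 5785 and 4206 in the labelled-WT and labelled-KO libraries, against 2385 and 3325 over all nuclei with at least 3 rule genes.

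Genes at the threshold differed between the libraries. In the labelled-KO library, C1qa stood at 174.5 CPM (counts scaled to the total of the nuclei summed) in the 79 nuclei with 2 rule genes, at 639.9 in the 45 members with 3 and at 1173 in the 217 members with 5 or more. Stab1 stood at 78.9, 346.2 and 879.1 CPM in the same nuclei, and the stromal gene Col3a1 at 5646, 524.5 and 349.5, while Lyz2 changed little (1284, 1301 and 1388). C1qa in the labelled-WT library stood at 450.6 CPM in 85 nuclei with 2 rule genes and at 821.3 in 50 members with 3, while Col3a1 stood at 1327 and 1170. In the 23 members of that library with 5 or more, C1qa stood at 810.6 and Col3a1 at 2918 CPM, and the macrophage identity list summed to 5922 CPM, against 8593 with 3. Lyz2, a gene of that list, made most of this difference, at 626.8 CPM against 3270 in the same nuclei. The perivascular list did not fall, at 5436 CPM against 4447. Stromal markers of the labelled-KO library summed to 13274 CPM just outside the threshold and to 1448 just inside it.

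To describe what the members carried, their summed counts were compared, within each library, with those of all other kept nuclei. Those other nuclei include the macrophages that the exclusion lists removed, so these ratios understate the distance from non-macrophages. Among 873 genes with at least 50 member counts in each library, 170 (19.5%) stood at least 2 times higher in members in both libraries, and the median of the smaller of the 2 ratios was 1.13. Most genes of macrophage identity were high in the members: 7 of the 9 with enough counts passed 2 in both libraries, with a median smaller ratio of 4.54. The exceptions were Ptprc, at 1.05 and 3.84 times in the labelled-WT and labelled-KO libraries, and Ctss, at 1.93 and 3.70. Lyz2 (lysozyme) had 2065 CPM and 6.38 times the other nuclei in the labelled-WT library, and 1601 CPM and 5.19 times in the labelled-KO library. Adgre1, which encodes F4/80, had 47 member counts in the labelled-WT library, below the minimum, and stood at 8.39 and 7.51 times in the same order. Aif1 and Cx3cr1 were sparse, with 6 and 3 counts in the labelled-WT library and 16 and 13 in the labelled-KO library, so these markers could not be read.

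The rule genes themselves stood at 7.60 to 29.9 times the other nuclei in the labelled-WT library and at 8.26 to 11.5 times in the labelled-KO library. Cd163 had 571.7 CPM in members of the labelled-WT library and 1824 in those of the labelled-KO library, at 25.3 and 11.5 times the other nuclei. With each nucleus thinned to 1000 UMIs (9 and 20 shallower members left out), Mrc1 was detected in 69.4% and 88.4% of members, against 2.14% and 2.40% of stromal nuclei, which should lack it. Median depth before thinning was 1500 UMIs in stromal nuclei of the labelled-WT library and 3461 in those of the labelled-KO library. These values describe the choice of members.

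Scavenger and lectin receptors led the genes outside the rule. Stab1, a scavenger receptor that clears modified proteins and dying cells, had 755.3 CPM (interval 657.4 to 863.5) in the labelled-WT library, with an interval of 11.0 to 15.4 for its ratio to the other nuclei. It had 768.4 CPM (interval 712.9 to 827.2) and 11.1 times in the labelled-KO library. After thinning, Stab1 was detected in 58.2% and 42.4% of members and in 1.53% and 0.399% of stromal nuclei. The C-type lectins Mgl2 and Clec10a, which bind galactose-type sugars, stood at 10.0 and 8.51 times in the labelled-KO library. In members of the other library Mgl2 stood at 13.3 times and Clec10a had 854.1 CPM. Cd209g, Cd209f and Cd209d, paralogs whose reads may be split between copies, stood at 8.41 times or more in both libraries. Folr2, a folate receptor, stood at 7.82 and 7.34 times, and Lyve1, the hyaluronan receptor, at 6.92 and 8.39 times. Lilrb4a, an inhibitory receptor with close paralogs, stood at 7.82 and 8.06 times.

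Complement and chemokine genes stood high as well. C1qa, C1qb and C1qc encode the chains of C1q, which starts the classical complement pathway and tags dying cells. They stood at 9.49, 7.52 and 9.38 times the other nuclei in the labelled-WT library, and at 8.24, 8.41 and 8.36 times in the labelled-KO library. C1qa was detected in 59.2% and 49.5% of thinned members and in 5.20% and 4.53% of stromal nuclei. Of 5 complement genes with enough counts, 4 passed 2 in both libraries (median smaller ratio 7.52); the exception was C4b, at 1.91 and 1.41. All 4 chemokine genes with enough counts passed: Ccl6 (6.40 and 7.76), Ccl8 (6.61 and 5.63), Ccl9 (6.19 and 6.25) and Pf4 (7.74 and 8.56).

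The other leading genes had varied roles. Dab2 encodes an adaptor for endocytosis (10.8 and 7.12 times), P2ry6 a receptor for the nucleotide UDP (9.50 and 9.32), Stard8 a GTPase-activating protein (13.4 and 9.45) and Rassf4 a member of the RASSF family (6.95 and 7.06). Ms4a7, a membrane protein of macrophages, stood at 8.59 and 7.96 times. The lineage factor Maf stood at 5.53 times in the labelled-WT library and at 5.80 times in the labelled-KO library. It had 1256 and 1051 CPM in members, in the same order of libraries. Of 7 lineage factors with enough counts, 5 passed 2 in both libraries, with a median smaller ratio of 2.23.

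**Figure D2:**
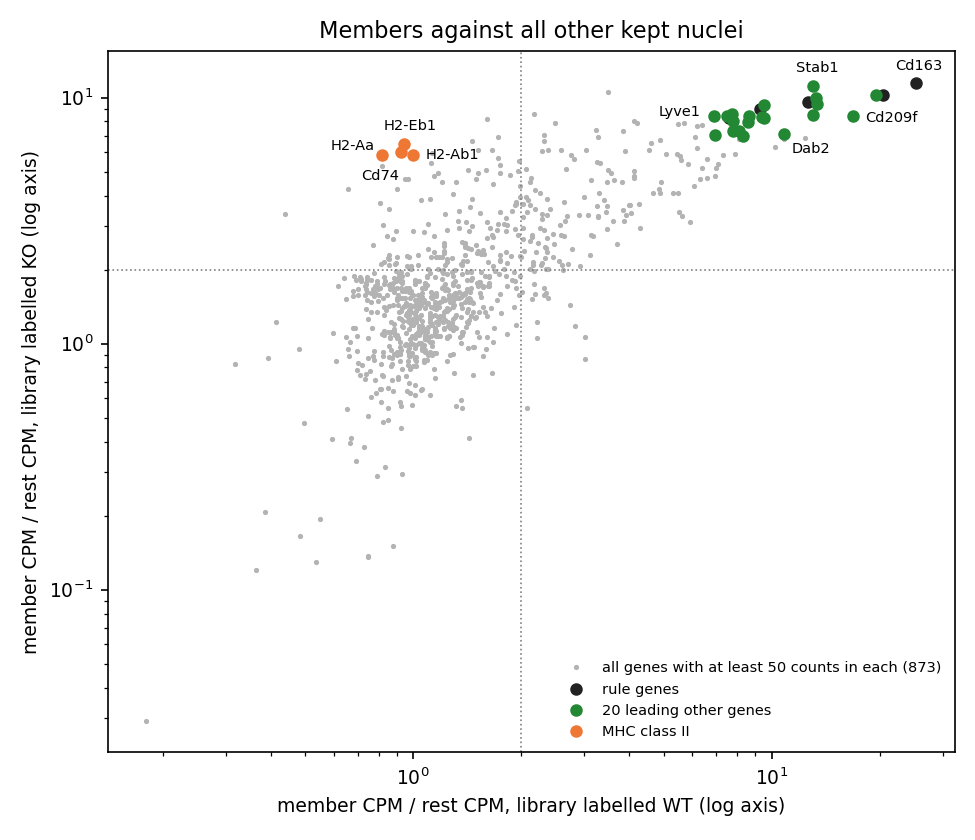
Ratio of member CPM to CPM of the other kept nuclei, with the labelled-WT library on the x axis (log) and the labelled-KO library on the y axis (log), 1 point per gene for 873 genes. Rule genes (black) and the 20 leading other genes (green) lie top right, at 6.92 or more in the labelled-WT library, while the MHC class II genes (orange) lie at 0.816 to 0.998 in the labelled-WT library and at 5.84 to 6.46 in the labelled-KO library. Dotted lines mark 2.

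Further pathway lists differed in how many genes passed. Of 4 scavenger genes 2 passed 2 in both libraries, and of 2 genes for the uptake of dying cells 1 did. Of 10 perivascular-type genes with enough counts, 9 passed 2 in both libraries (median smaller ratio 7.54). The exception was Igf1, a growth factor, at 2.83 and 1.18 times. All 3 Fc receptor genes passed (median 4.14), and Ccr2 stood at 3.81 and 4.52 times. Of 10 genes of lipid-associated macrophages, only Apoe passed, at 4.86 and 4.25 times (4228 and 3203 CPM), and the list's median was 1.29, close to the 1.13 of all genes. Trem2, the receptor that marks that state, had 20 counts in members of the labelled-WT library and 55 in those of the labelled-KO library, too few for this comparison. Its CPM of 70.6 and 59.7 stood at 2.90 and 4.20 times the other nuclei. Of 5 iron and haem genes, only Tfrc (transferrin receptor) passed, at 4.61 and 6.54 times. None of the 4 MHC class II genes with enough counts passed in both libraries (median smaller ratio 0.934). The other nuclei of the labelled-WT library include B and T nuclei, which carried 11372 CPM of this list. Members there carried 4733 CPM and stromal nuclei 2173. Hmox1 (haem oxygenase) and Slc40a1 (ferroportin, the iron exporter) were below the count minimum, with 14 and 16 counts in the labelled-WT library and 90 and 56 in the labelled-KO library.

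All 4 genes with enough counts in a list of alternative activation passed 2: Retnla, Mgl2, Clec10a and Tgfbi, with a median smaller ratio of 6.97. Retnla, a secreted protein induced by IL-4, had 1214 and 2739 CPM and stood at 6.93 and 4.82 times. After thinning, it was detected in 49.0% of members and 10.4% of stromal nuclei in the labelled-WT library. The shares were 65.3% and 21.4% in the labelled-KO library. Thinned B nuclei carried it in 12.9% of the labelled-WT library and 47.8% of the labelled-KO library (23 nuclei). Retnla thus stands on a background in both libraries. Arg1, the arginase often used with Retnla, had 0 and 3 counts. Of 12 inflammatory genes, summing to 518.8 and 340.8 CPM in members, several had few counts or none. Nos2 and Il1a had no count in members of either library, which allows up to 3 counts each, Il1b had 0 and 1, and Tnf 7 and 4. Slc6a2, the noradrenaline transporter of nerve-associated macrophages, had no count in either library, with the same limit. The list of 6 nerve-associated genes to which it belongs summed to 229.4 and 383.1 CPM in members. These sums stood at 1.72 times (interval 1.32 to 2.22) and 1.54 times (interval 1.38 to 1.72) the other nuclei.

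The members also carried RNA of other cell types. Lymphocyte and stromal markers were higher in members of the labelled-WT library and adipocyte markers in those of the labelled-KO library. Summed over 10 B cell markers, members had 1475 CPM in the labelled-WT library, against 4040 in the other nuclei. Members of the labelled-KO library had 592.6 CPM, against 224.1 in the other nuclei, a ratio of 2.64 (interval 2.41 to 2.89). Bank1 alone made 354.9 CPM of the members' sum there (327 of 546 counts), while Ms4a1 had 0 counts, Pax5 1 and Cd79a 2. T cell markers summed to 907.0 and 11.9 CPM, and stromal markers to 3342 and 971.4, against 19109 and 26393 CPM in stromal nuclei. The 4 adipocyte genes of the rule summed to 151.8 and 229.0 CPM, against 2141 and 4070 in other nuclei. A further list of adipocyte genes summed to 275.3 and 835.7 CPM, and muscle genes to 35.3 and 144.4. A doublet caller made 0 automatic calls in the labelled-WT library, so the highest-scoring 4% (146 of 3649 kept nuclei) were taken there. They held 8 of 107 members (7.48%). In the labelled-KO library its automatic threshold marked 92 of 2944 kept nuclei, among them 3 of 331 members (0.906%). These 2 shares rest on different thresholds and cannot be compared. What part free RNA or doublets have in the values below was not tested.

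To place the members among the macrophages of the depot, they were compared with nuclei with at least 3 of the 6 St18-list genes (the St18 set) and with nuclei with at least 2 of the 4 Timd4-list genes (the Timd4 set). The St18 set held 52 nuclei, all in the labelled-KO library, and the Timd4 set held 35 in the labelled-WT library and 58 in the labelled-KO library, so genes were compared within the labelled-KO library. Median depth was 3724.5 UMIs in the St18 set and 3844.5 in the Timd4 set, against 2367 in members. The genes of both exclusion lists differ by construction.

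Against the St18 set, 962 of 7126 genes (13.5%) stood at least 2 times higher in members and 401 (5.63%) at most 0.5 times, with a median ratio of 1.06. All 12 perivascular-type genes with enough counts passed 2 (median 7.63). Stab1 had 708 member counts and 10 in the St18 set, a ratio of 16.3 (interval 8.82 to 34.2). Lyve1 stood at 12.4 times (interval 4.77 to 45.9) and Folr2 at 10.3 (interval 4.36 to 32.1). Pdgfc, a growth factor for stromal cells, stood at 15.5 times (interval 7.80 to 36.0) and the chemokine Ccl8 at 12.9 (interval 5.87 to 35.4). The genes with the largest ratios were Ednrb (endothelin receptor B), with 252 counts against 2 and a ratio of 29.0 (interval 7.96 to 241.1), then Ninj1, Ccl24, Kctd16, Sorbs3 and Cd209f, at 19.7 to 21.7. Of these, Ninj1, Ccl24, Kctd16 and Sorbs3 each had 1 count in the St18 set.

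Maf and complement followed the same direction. Maf stood at 2.56 times (interval 2.06 to 3.23), and 8 of 14 complement genes passed 2, with 2 at most 0.5. On the lower side, Ptprc (CD45) stood at 0.355 times (interval 0.315 to 0.400) and Ccr2 at 0.493 (interval 0.394 to 0.620). Klra2, a lectin-like receptor, had 7 counts in members and 59 in the St18 set, a ratio of 0.0273 (interval 0.0105 to 0.0599). Itgal, the integrin LFA-1 alpha chain, stood at 0.0376 (interval 0.0154 to 0.0801). The others with the smallest ratios were Gm2682 (0.00922), Skap1 (0.0231), Adgrl3 (0.0314, from 3 counts) and St6galnac3. The last had 0 member counts against 22, or 0.0314 times with the 0 set to 3 counts. Genes of dividing cells summed to 118.3 CPM in members and 922.9 in the St18 set, a ratio of 0.128 (interval 0.100 to 0.163), and all 4 with enough counts were at most 0.5. MHC class II genes, in contrast, lay close together: none of 7 passed either limit and their sum had a ratio of 0.885 (interval 0.844 to 0.928).

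Against the Timd4 set, the order turned. There 654 of 7090 genes (9.22%) stood at least 2 times higher in members and 130 (1.83%) at most 0.5 times. MHC class II genes were higher in members, with 5 of 7 at 2 or more, a median of 2.27 and a summed ratio of 1.99 (interval 1.87 to 2.12). Ciita, the master activator of these genes, stood at 2.64 times (interval 1.69 to 4.36) and H2-Eb1 at 2.27 (interval 1.96 to 2.64). Ccr2 had 248 counts in members and 5 in the Timd4 set, a ratio of 12.9 (interval 5.47 to 40.2), and Fn1 (fibronectin) stood at 4.08 times (interval 2.54 to 6.99). Genes of dividing cells, lower in members than in the St18 set, were higher than in the Timd4 set. They summed to 118.3 against 20.8 CPM (109 and 5 counts), a ratio of 5.68 (interval 2.36 to 17.8). Lyve1 was lower in members, at 0.389 times (interval 0.314 to 0.484), with Folr2 at 0.467 and Cd209f at 0.472. The complement genes C6 and Vsig4 stood at 0.354 and 0.345 times. The rule genes lay at 0.690 to 0.883 times and none of 13 macrophage identity genes passed either limit, with a summed ratio of 0.982 (interval 0.930 to 1.04). In the labelled-WT library the same lists summed to 4733 CPM (MHC class II) and 5555 CPM (perivascular) in members and to 3829 and 7006 in its 35 Timd4-set nuclei.

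**Figure D3:**
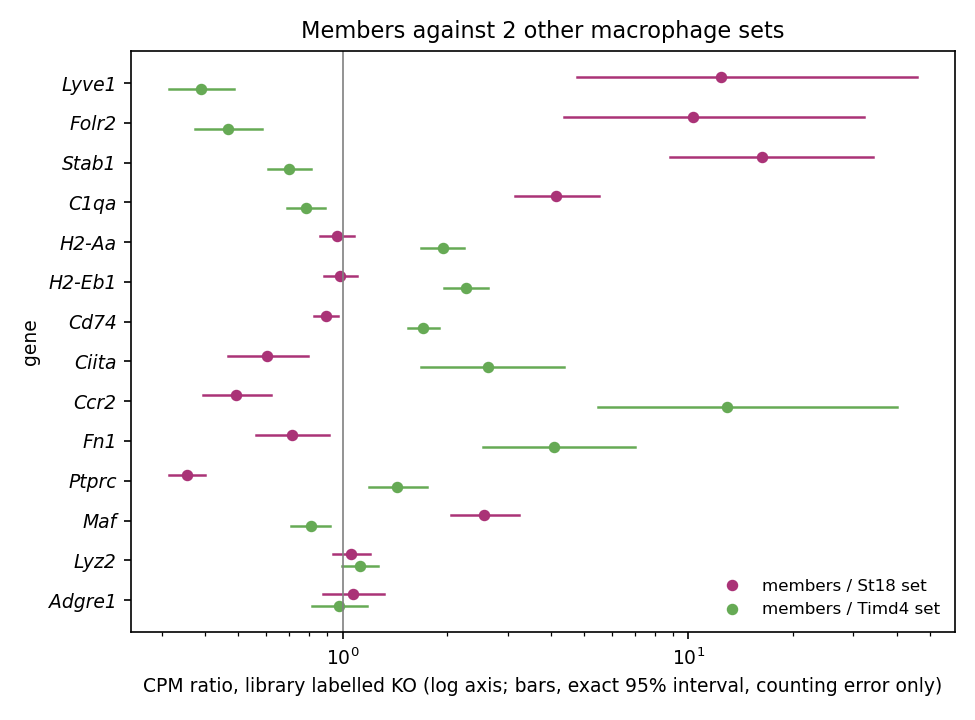
Ratio of member CPM to CPM of the St18 set (purple, 52 nuclei) and of the Timd4 set (green, 58 nuclei) in the labelled-KO library (x axis, log), for 14 genes (y axis), with exact 95% intervals for counting error as bars. Lyve1, Folr2, Stab1 and C1qa lie above 1 against the St18 set and below 1 against the Timd4 set, Ccr2 lies at 0.493 and 12.9, and Lyz2 and Adgre1 lie near 1 against both.

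To ask how members differed between the genotypes, member counts of the 2 libraries were compared for 4933 genes with at least 50 counts over both. As scaled to total counts, 1400 genes (28.4%) stood at 2 times or more in the labelled-KO library and 497 (10.1%) at 0.5 times or less, with a median log2 ratio of 0.23. The ratio moved with gene structure. Median log2 ratios ran from −0.68 in genes with the shortest summed introns (up to 1562 bases) to 2.25 in genes with the longest (237434 bases and more). With the median of genes of like intronic length subtracted (4810 genes), 879 (18.3%) stood at 2 times or more and 599 (12.5%) at 0.5 times or less, and 59.5% of those past either limit were higher in the labelled-KO library, against 73.8% as scaled. That percentage was 60.7% with mitochondrial genes and Malat1 left out of the total and 61.9% with a minimum of 20 counts. TMM scaling moved the median log2 ratio to 0.42 and that percentage to 82.8% (1627 genes against 337). A ratio is therefore given below as scaled and, where it matters, relative to genes of like length.

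**Figure D4:**
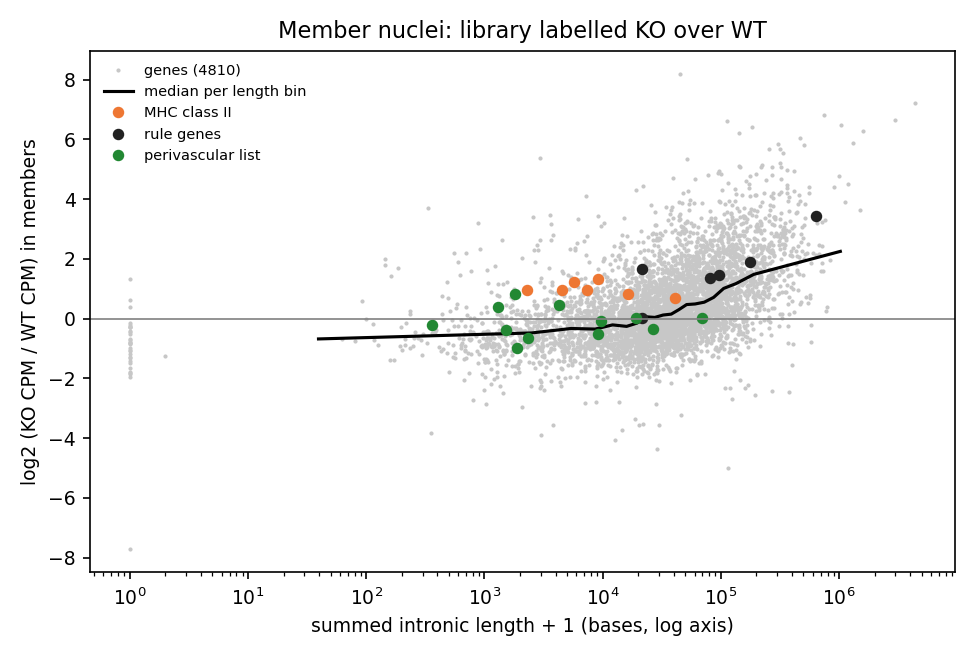
Log2 ratio of member CPM, labelled-KO library over labelled-WT library (y axis), against summed intronic length plus 1 base (x axis, log), 1 point per gene for 4810 genes. The black line joins the medians of 20 length bins, from −0.68 to 2.25; MHC class II genes (orange) lie above it, and long rule genes (black) lie high where the line is high.

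Rule genes illustrate this. Mctp1 stood at 10.9 times and F13a1 at 3.75 times in members of the labelled-KO library, and 5 of 6 rule genes with enough counts and a length passed 2 as scaled, against 2 of 6 after the length correction. Csf1r stood at 1.02 times (interval 0.842 to 1.24). Because members were chosen by UMIs of these genes, the levels describe the choice. Outside the rule, Stab1 stood at 1.02 times (interval 0.872 to 1.19), C1qa at 1.11 (interval 0.967 to 1.27) and Maf at 0.836 (interval 0.740 to 0.947). The median log2 ratio was −0.15 for 12 perivascular-type genes (0.22 corrected) and −0.25 for 13 macrophage identity genes (0.00 corrected), against 0.23 (0.00 corrected) for all genes.

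MHC class II genes had higher levels in members of the labelled-KO library. H2-Aa had 288 counts (1016 CPM, interval 902.4 to 1141) in members of the labelled-WT library and 1658 (1800 CPM, interval 1714 to 1888) in those of the labelled-KO library, a ratio of 1.77 (interval 1.56 to 2.01). H2-Eb1 stood at 2.49 times (interval 2.16 to 2.89), H2-Ab1 at 1.93 (interval 1.69 to 2.22) and Cd74, the invariant chain, at 1.95 (interval 1.77 to 2.16). Ciita stood at 1.60 times (interval 1.14 to 2.29). All 5 intervals lay above 1. Of 7 genes with enough counts, 2 passed 2 as scaled (28.4% of all genes did) and 6 after the length correction (18.3% of all genes), with medians of 0.96 and 1.31 on the log2 scale, and none was at 0.5 or less. H2-DMb2, H2-Oa and H2-Ob, the other genes of the list, were below the count minimum and had more counts in the labelled-WT library (17, 5 and 25, against 2, 0 and 4).

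The level in other nuclei moved the opposite way. In all other kept nuclei, the log2 ratio of these 7 genes between the libraries lay between −2.33 and −1.17, and B and T nuclei of the labelled-WT library carried 11372 CPM of the list. Stromal nuclei, which should lack it, carried 2173 CPM in the labelled-WT library and 439.0 in the labelled-KO library, while members carried 4733 and 9113. After thinning, H2-Aa was detected in 54.1% of members and 25.1% of stromal nuclei in the labelled-WT library. The shares were 65.9% and 12.0% in the labelled-KO library. The member values of the labelled-WT library thus stand on a higher background.

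Genes of uptake and repair varied. Of 11 genes for the uptake of dying cells, 5 stood at 2 or more as scaled and 2 after correction, near the 18.3% of all genes, and the list's median log2 ratio went from 0.51 to −0.07. The median of 8 scavenger genes went from 0.20 to −0.14. Mertk, a receptor for dying cells, had 28 counts in the labelled-WT library and 568 in the labelled-KO library, a ratio of 6.24 (interval 4.27 to 9.47) and 1.63 on the log2 scale after correction. It was detected in 10.2% and 40.5% of thinned members, against 2.75% and 2.13% of stromal nuclei. Other nuclei also had more of it in the labelled-KO library, by 2.03 on the log2 scale. C5ar1, a receptor for the complement fragment C5a, stood at 3.99 times (interval 2.75 to 5.99), Pdgfc at 20.6 (interval 10.4 to 48.1) and Retnla at 2.26 (interval 2.02 to 2.53); their log2 ratios in other nuclei were 1.82, 4.17 and 1.70. The factors Fli1 and Mitf stood at 9.16 times (interval 6.11 to 14.4) and 8.38 times (interval 5.75 to 12.7), or 2.18 and 1.58 on the log2 scale after correction. They are 2 of 17 lineage factors, of which 5 stood at 2 or more as scaled, near the 28.4% of all genes. After correction 4 did (18.3% of all genes) and 3 were at 0.5 or less.

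Some genes had lower values in the labelled-KO library. As scaled, 3 of 10 chemokine genes were at 0.5 or less, Ccl2 (0.281), Cxcl12 (0.375) and Cxcl16 (0.202), and none at 2 or more. After the length correction, 3 were at 0.5 or less and 2 at 2 or more. The list's median log2 ratio was −0.65 as scaled and −0.47 with TMM scaling. With mitochondrial genes and Malat1 left out of the total it was −0.87. The length correction moved it to 0.02, so its direction rested on that correction. Gpnmb, a lysosomal protein of lipid-associated macrophages, had 40 and 11 counts, a ratio of 0.0846 (interval 0.0391 to 0.168) and −3.61 on the log2 scale after correction; in other nuclei it was −1.34. It was 1 of 2 genes at 0.5 or less among 17 lipid-associated genes, with 1 at 2 or more, so that list stood near the 10.1% of all genes. Stromal markers stood lower too, with 5 of 7 at 0.5 or less and a median log2 ratio of −1.95.

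The rule for the most changed genes took only genes no lower in members than in other nuclei, judged on the side with more of the gene. Some genes that it did not name fell further in the labelled-KO library. Igkc stood at −7.70 and Slamf6 at −4.35 on the log2 scale as scaled. By this rule, the genes higher in the labelled-KO library were Gm12353, Lysmd4, Fkbp5, Mamdc2, Apba1, Ubtd1, Arhgef37 and Gm20404. Fkbp5, a co-chaperone of the glucocorticoid receptor that glucocorticoids induce, had 4 counts in members of the labelled-WT library and 1283 in those of the labelled-KO library, a ratio of 98.6 (interval 38.4 to 362.6). Apba1, an adaptor protein, had 0 and 836 counts, a ratio of 85.7 with the 0 set to 3 counts (lower bound of the interval 69.5). Gm20404 had 0 and 192 counts, a ratio of 19.7 made the same way (lower bound 15.9). The other 5 had 1 or 2 counts in the labelled-WT library and 85 to 937 in the labelled-KO library. In other nuclei all 8 were higher in the labelled-KO library as well, by 2.87 to 9.02 on the log2 scale. Those lower in the labelled-KO library were Ate1 (0.154), Samsn1 (0.199), Gpnmb, Ikzf2 (0.238), Birc2 (0.144), Rinl (0.143), Bgn (0.146) and Gm12216 (0.276). Of these, 6 were also lower in other nuclei, by 0.84 to 3.59 on the log2 scale, while Bgn (biglycan, a matrix proteoglycan) and Gm12216 were not, at 0.16 and 0.40.

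The members were then split by Lyve1, which the rule did not use. A Lyve1 UMI was found in 30 of 107 members (28.0%) in the labelled-WT library and in 78 of 331 (23.6%) in the labelled-KO library. With 1000 UMIs per nucleus the shares were 16.3% and 13.2%, against 1.53% and 0.533% in stromal nuclei. Members with a Lyve1 UMI had a median of 1608.5 UMIs in the labelled-WT library, against 1801 without, and of 3423 in the labelled-KO library, against 2170.

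Perivascular-type genes other than Lyve1 were higher in members with a Lyve1 UMI, at 2.13 times (interval 1.92 to 2.37) in the labelled-WT library and 1.50 times (interval 1.41 to 1.60) in the labelled-KO library. Folr2 stood at 5.01 times (interval 2.75 to 9.31) and 2.67 (interval 2.03 to 3.51), and Cd209f at 6.40 (interval 4.19 to 9.92) and 2.57 (interval 1.99 to 3.31). Retnla stood at 6.83 times (interval 5.43 to 8.63) and 1.96 (interval 1.81 to 2.12). Complement genes summed to 1.82 and 1.60 times. Ccr2 was lower, at 0.477 (interval 0.219 to 0.931) and 0.371 (interval 0.254 to 0.527). The direction of these genes and lists was the same in both libraries. Members with a Ccr2 UMI did not mirror this for every gene: Lyve1 stood at 0.948 (interval 0.545 to 1.60) and 1.48 times (interval 1.11 to 1.96) in them, and Retnla at 1.39 (interval 1.11 to 1.73) and 1.95 times (interval 1.80 to 2.11).

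MHC class II genes did not share a direction. Their sum in members with a Lyve1 UMI was 1.17 times (interval 1.03 to 1.32) that of members without in the labelled-WT library and 0.740 times (interval 0.704 to 0.777) in the labelled-KO library. Thinned to 1000 UMIs, the value of the labelled-WT library turned to −0.18 on the log2 scale. Stromal markers were at 2.73 times (interval 2.40 to 3.11) in members with a Lyve1 UMI of the labelled-WT library and at 0.801 (interval 0.689 to 0.929) in the labelled-KO library.

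A split by Ccr2, added after the data were seen, gave 1 direction for MHC class II in both libraries. Members with a Ccr2 UMI, 26 in the labelled-WT library and 86 in the labelled-KO library, had 1.50 times (interval 1.34 to 1.67) and 2.11 times (interval 2.02 to 2.20) the MHC class II sum of those without. Their perivascular sum stood at 0.591 (interval 0.524 to 0.666) and 0.775 times (interval 0.722 to 0.831). Stab1 was lower in them, at 0.535 (interval 0.375 to 0.750) and 0.392 (interval 0.315 to 0.483). Macrophage identity genes stood at 1.43 and 1.39 times. Members with a Ccr2 UMI were deeper, with medians of 2304.5 and 2931 UMIs against 1608 and 2207. Thinned to 1000 UMIs, the perivascular value kept its direction but moved in size. On the log2 scale it went from −0.76 to −0.26 in the labelled-WT library and from −0.37 to −0.91 in the labelled-KO library. The MHC class II value went from 0.58 to 0.82 and from 1.08 to 0.92 in the same order. Both genes were detected in 7 members of the labelled-WT library and 19 of the labelled-KO library, and neither in 58 and 186, so most members carried no UMI that could place them.

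**Figure D5:**
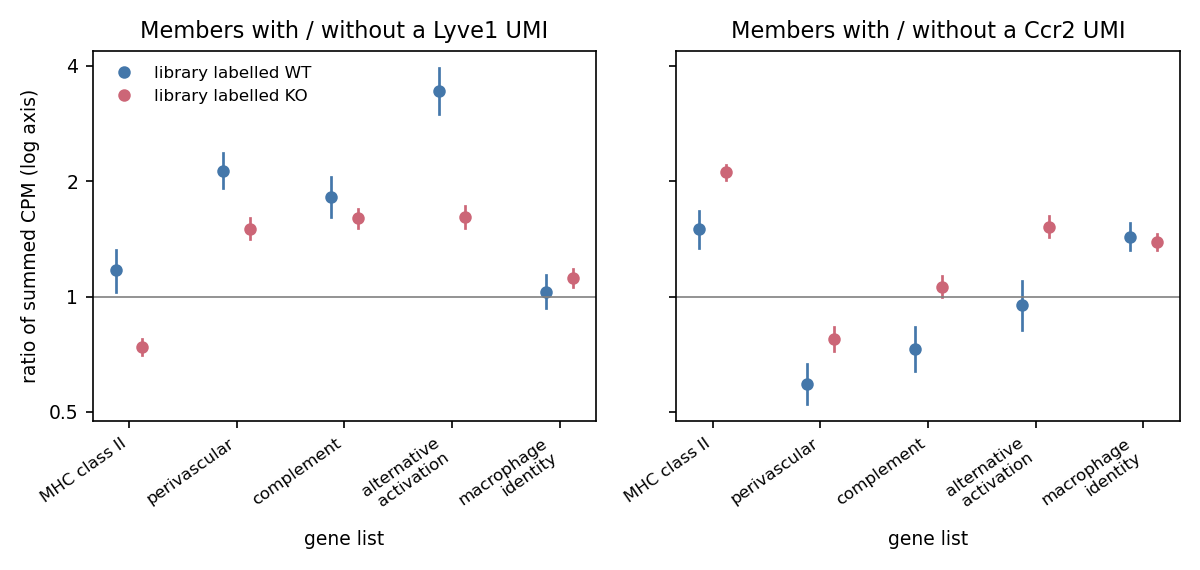
Ratio of summed CPM of 5 gene lists (x axis) between members with and without a UMI of Lyve1 (left) or of Ccr2 (right), in the labelled-WT library (blue) and the labelled-KO library (red), on a log y axis with exact 95% intervals for counting error as bars. The perivascular list lies above 1 in the Lyve1 split (2.13 and 1.50) and below 1 in the Ccr2 split (0.591 and 0.775), and the MHC class II list lies above 1 in both libraries in the Ccr2 split alone (1.50 and 2.11).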

How the data were processed

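Single-nucleus RNA-seq of iWAT was analysed from 2 libraries, 1 per genotype, each of 3 pooled mice. Per library, the authors deposited a table of UMI counts for 31053 genes and 5000 barcodes, made with Cell Ranger (6.1.1 per the file headers). Build mm10 and Seurat 4 are named in the submitters' processing notes. Whether intronic reads were counted and whether free RNA was removed are not given in the sources used here, and either could change levels of long genes and of genes from other cells.

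The members, the gene lists and the comparisons were chosen with earlier results of these data known. Counts were summed over nuclei and scaled to the total of those nuclei (CPM). Shares have Clopper-Pearson intervals, counts Poisson intervals, CPM ratios conditional binomial intervals and the share difference a square-and-add interval, all at 95% and for counting error only. With 1 library per group no test was made. A count of 0 was set to 3 counts to give a ratio or a limit. Intronic lengths came from the GENCODE vM1 annotation, matched by gene ID to 97.5% of genes, with 20 length bins; its build differs from that of the files and no coordinates were used. Other cell classes were nuclei with UMIs of at least 3 class markers. Doublets were scored with Scrublet in scanpy 1.11.5 and kept. The ratio counts and the length correction were tested on simulated data.

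Genes were named by rule: the 7 rule genes; the 20 highest over other nuclei by the smaller of both libraries' ratios; the 6 highest and 6 lowest against the St18 set, applied in the labelled-KO library since the other held no such nucleus; the 8 highest and 8 lowest between libraries past 2 or 0.5 as scaled and corrected; and the best-counted genes of each list. The same choice against the Timd4 set required 50 nuclei in each library, which the labelled-WT library did not hold. The choice between libraries took only genes no lower in members than in other nuclei, judged on the side with more of the gene. Alternatives covered the number of rule genes and of detected genes, thinning, doublets, exclusion lists, denominators, count minimums, scaling (edgeR 4.0.16 TMM in R 4.3.3) and length. Python 3.11.15, numpy 2.4.6, scipy 1.17.1, pandas 2.3.3 and matplotlib 3.10.9 were used. Results for a few list genes are not reported here.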

Additional observations from a re-analysis of the deposited data

Results flagged for a closer look

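The MHC class II sum of members with a Lyve1 UMI over those without was 1.17 in the labelled-WT library and 0.740 in the labelled-KO library, opposite directions in the 2 libraries. The difference between the libraries was not tested, and the first value rests on 30 nuclei with a Lyve1 UMI.

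Below the minimum of 500 detected genes, 18 of 1448 barcodes (1.24%, interval 0.738 to 1.96) of the labelled-KO library met the gene rule, with a median of 673 UMIs. In the labelled-WT library it was met by 0 of 447 barcodes, which allows up to 3. These barcodes entered no comparison.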

How the results depend on the processing

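Of 149 values recomputed under alternatives, 111 were classed as the same, 36 as moved and 2 as reversed. List medians could change sign within the first 2 classes. After division by the ratio in other nuclei, the median log2 ratio of macrophage identity genes went from −0.25 to 0.07 (classed as the same). That of chemokine genes went from −0.65 to 0.15 (classed as moved). The cause of the moves was not tested. The shares in the labelled-WT and labelled-KO libraries were 5.26% and 13.9% with 2 rule genes, 1.56% and 9.71% with 4, and 4.47% and 24.4% without exclusion lists (difference 19.9 points). With at least 1000 genes the share in the labelled-WT library was 5.59% (difference 4.87), without B and T nuclei 5.00% (difference 6.54), and thinned to 1000 UMIs that of the labelled-KO library was 16.2% (difference 13.6). With 4 rule genes, 87 genes stood at 2 times or more over other nuclei, since fewer had enough counts. With at least 50 counts, 440 and 159 genes passed 2 and 0.5 against the St18 set and 190 and 39 against the Timd4 set. Between libraries, 777 genes were at 0.5 or less without mitochondrial genes and Malat1 in the total, 1272 with at least 20 counts, 879 at 2 or more after the length correction, and 827 and 297 past either limit after division by the ratio in other nuclei. That division gave a median log2 ratio of 2.78 for MHC class II genes (length correction 1.31) and turned that of complement genes to −0.19. Thinning turned the Lyve1 split of MHC class II in the labelled-WT library to −0.18 on the log2 scale.

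No paired analysis was possible because each genotype had 1 library. The spread between mice cannot be had from pooled tissue, and genotype cannot be told apart from differences between preparations. The labelled-WT library limits precision, with 107 members and 283348 member UMIs.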

Other observations

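Lineage factors outside the main text varied between the libraries. Irf8, a factor of monocytes and B cells, had 71 and 68 member counts in the labelled-WT and labelled-KO libraries, a CPM ratio of 0.295 (interval 0.208 to 0.417), and other nuclei showed −3.36 on the log2 scale. Runx1 stood at 2.58 times (interval 2.09 to 3.21), or −0.12 on the log2 scale after the length correction, which turned its direction. Dendritic markers varied in members. The 10 genes summed to 462.3 and 398.3 CPM, at 1.54 times (interval 1.28 to 1.84) and 2.61 times (interval 2.33 to 2.91) the other nuclei. In each library 4 of them stood at 2 times or more. Of the others, Xcr1 had no count in either library, which allows up to 3, and Flt3 had only 7 and 12 counts. Mast cell markers Ms4a2 and Fcer1a and the neutrophil marker Ly6g had no count in either library, with the same limit. The 7 mast cell markers had 11 and 19 counts together. The 6 neutrophil markers had 14 and 85, at 2.22 times (interval 1.18 to 3.84) and 3.91 times (interval 3.05 to 4.96) the other nuclei.

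Against the Timd4 set, adipocyte-type genes outside the rule summed to 1.63 times in members (interval 1.35 to 1.99) in the labelled-KO library, and interferon-response genes to 0.738 times (interval 0.607 to 0.903).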
